A study of Homo sapiens with 6 samples.

Results

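The core histone variants made independently of DNA replication were measured as ribosome footprints in RKO, a cell line from human colorectal cancer. They were chosen by name as the 9 human genes for the histone H2A variants H2A.Z (H2AZ1, H2AZ2), H2A.X (H2AX), H2A.J (H2AJ) and macroH2A (MACROH2A1, MACROH2A2) and for the histone H3 variants H3.3 (H3-3A, H3-3B) and CENP-A (CENPA). All 9 were among the 20289 genes of the deposited table. A nucleosome is a stretch of DNA wound around an octamer of the core histones H2A, H2B, H3 and H4. Most new histone is made in S phase from clustered, replication-dependent genes whose mRNAs end in a stem-loop instead of a poly(A) tail. Variant histones come from genes outside that supply, most of them with introns and polyadenylated mRNAs, and dedicated chaperones place them at particular sites of the genome throughout the cell cycle. They are known to replace canonical histones at active genes and enhancers (H3.3, H2A.Z), to build centromeres (CENP-A), to mark DNA breaks (H2A.X) and to accompany repressed chromatin (macroH2A).

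The libraries form 2 groups of 3. In shTRMT6 the RKO cells carried a short hairpin RNA against TRMT6, and in shControl, which the labels class as WT, they carried a control hairpin. TRMT6 and TRMT61A form the enzyme that places the m1A modification on cytosolic tRNAs. The sources used here do not give the hairpin sequence, its delivery, the time after it or whether the knockdown line is a single clone. They also do not name separate cultures for the libraries of a group, and the p-values then measure the spread between these libraries alone, which may be technical.

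Footprints on TRMT6 itself were 20.7, 21.9 and 24.1 FPKM in shTRMT6, against 57.6, 58.4 and 95.3 FPKM in shControl (log2 fold change -1.58, SE 0.27, limma adjusted p = 0.00301). The FPKM sums were 1531873 to 1582826 per shTRMT6 library and 1463344 to 1760307 per shControl library, and the steps between low values gave an estimated 2580258 to 4077786 and 2594878 to 3905584 reads. Mitochondrially encoded genes held 7.74 to 13.7% of the sum in shTRMT6 and 0.790 to 2.02% in shControl, and the median FPKM of tested genes was 32.2 to 33.3 against 22.3 to 25.005, so the choice of scaling shifts every gene. Library 3 of shControl stood apart from the other 5 on the second principal component (15.2% of variance). Of 7 colorectal epithelial markers 5 were above 0 in some library, with sums of 168 to 193 FPKM in shTRMT6 and 165 to 262 FPKM in shControl, while CDH1 and VIL1 were listed at 0. Of the 5, KRT19 was above 0 only in shControl library 1, at 1.52 FPKM. KRT18 alone had 103 to 121 FPKM in shTRMT6 and 97.1 to 216 FPKM in shControl. Markers of immune, stromal, endothelial and liver cells summed to at most 1.09 FPKM in shTRMT6 and 0.980 FPKM in shControl.

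Footprints on 4 of the 8 variant genes that could be tested were lower in shTRMT6 and none were higher. The 4 were H3-3A, H3-3B, H2AZ1 and H2AX, each between 2.28-fold and 2.94-fold lower by mean FPKM and with no overlap between the groups. H2AZ2, MACROH2A1, MACROH2A2 and CENPA did not pass, and H2AJ was too low to test. Of the 11566 genes tested across the table, 9.04% were called lower and 26.5% higher at a limma adjusted p under 0.05. Groups did not overlap for 14.3% of them on the lower side and 37.0% on the higher. The median log2 fold change of the 8 was -0.89, beside 0.39 over all tested genes. The sum over all 9 genes was 2610 ± 235 FPKM in shTRMT6 and 6193 ± 606 FPKM in shControl (SD, n = 3 each), or 0.167% and 0.376% of the library sum. A footprint level combines how much mRNA there is with how densely ribosomes occupy it, and footprints alone cannot part the 2. In bulk samples fewer cells of a type and less RNA per cell cannot be told apart.

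**Figure D1:**
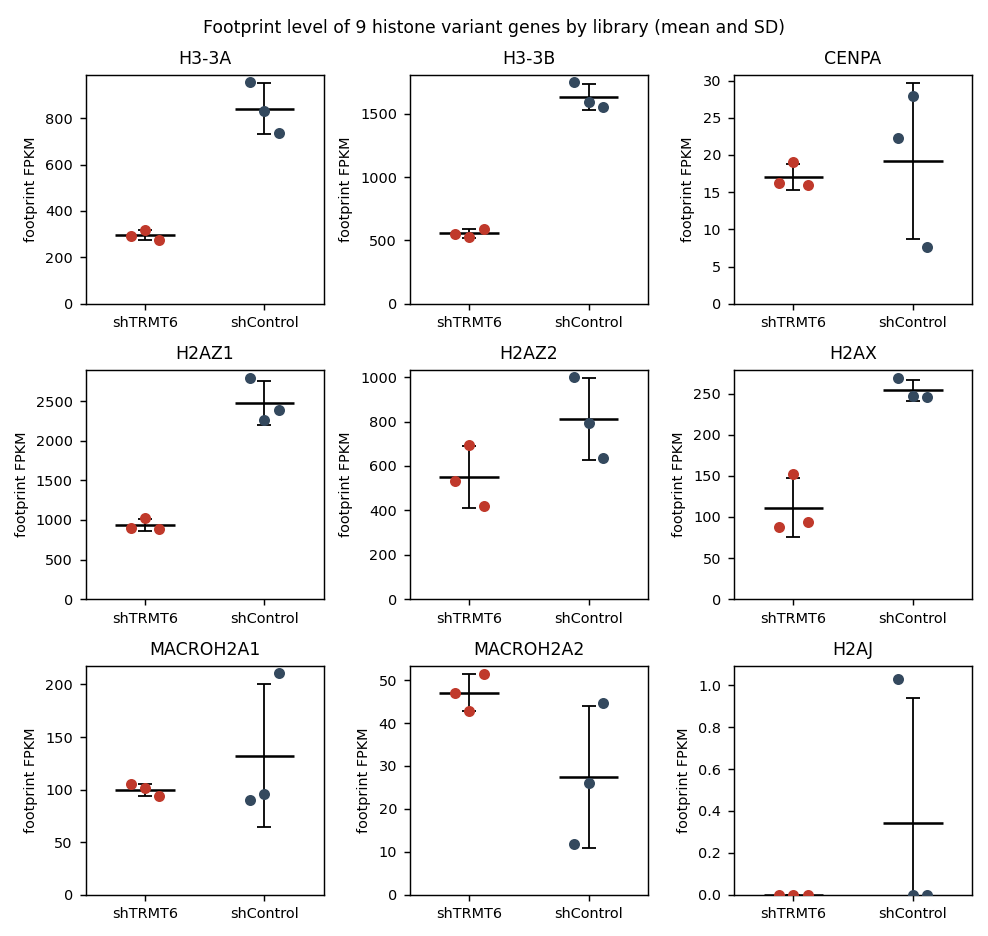
Footprint level (FPKM, linear axes from 0) of each variant gene in the 3 shTRMT6 and the 3 shControl libraries. Points are libraries, horizontal lines are means and error bars are SD; the groups are apart for H3-3A, H3-3B, H2AZ1 and H2AX and overlap for the other 5.

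H3.3 is encoded by a pair of genes, H3-3A and H3-3B, whose proteins were identical at all 136 residues although only 78.4% of their 408 coding bases were. H3.3 marks transcribed genes, regulatory elements and, through a separate chaperone, telomeres and repeats. H3-3A (ENSG00000163041) lies on the plus strand of chromosome 1 from 226061851 to 226072001 and H3-3B (ENSG00000132475) on the minus strand of chromosome 17 from 75776434 to 75785893 (GRCh38, as annotated by GENCODE 29). Both have introns, with 3 coding exons each. The first 40 codons of both, with those of the replication-dependent H3C1 for comparison, are printed because they show how far footprints can tell these near-identical proteins apart; capitals mark bases that differ from H3-3A. The stretches are chr1:226064352-226064471 (plus strand), chr17:75779055-75779174 (minus strand) and chr6:26020490-26020609 (plus strand) of GRCh38.
H3-3A: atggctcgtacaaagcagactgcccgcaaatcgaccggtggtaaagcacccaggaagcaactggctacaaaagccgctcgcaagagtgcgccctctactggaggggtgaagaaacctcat
H3-3B: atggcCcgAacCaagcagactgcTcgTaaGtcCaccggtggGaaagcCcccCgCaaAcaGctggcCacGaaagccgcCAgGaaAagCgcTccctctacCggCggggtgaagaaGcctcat
H3C1: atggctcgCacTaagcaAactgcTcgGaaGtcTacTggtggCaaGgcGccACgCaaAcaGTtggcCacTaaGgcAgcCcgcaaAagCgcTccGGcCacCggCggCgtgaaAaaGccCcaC

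Over these 120 bases H3-3B differed from H3-3A at 24, with a longest shared run of 11 bases, and H3C1 differed at 35, with a longest shared run of 8. The H3.3 and H3C1 proteins differed at 5 of 136 residues. No stretch of 28 bases, about the length of a footprint, was shared between any pair of these 3 coding sequences over their whole length. H3-3A has another limit, since each of its 381 stretches of 28 bases also occurs in a processed pseudogene (28 pseudogenes share some, and H3F3AP4 holds all), and the sources used here do not say how the authors divided such reads. None of its stretches is shared with another gene of the deposited table. In H3-3B 206 of 381 stretches were unique, and the others are shared with the variant gene H3-5, which had no more than 2.41 FPKM in any library.

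H3-3B had 552, 524 and 589.7 FPKM in shTRMT6 and 1748, 1589 and 1556 FPKM in shControl. Every shTRMT6 library lay far below every shControl library, and averages of 555 ± 33.0 and 1631 ± 103 FPKM (SD, n = 3 each) differed 2.94-fold. On the log2(FPKM + 1) scale, as for all fold changes given, the difference was -1.55 (SE 0.19, 95% interval -1.97 to -1.14, limma adjusted p = 0.000907). H3-3A had 291, 317 and 274 FPKM in shTRMT6 and 954, 833 and 736 FPKM in shControl, again without overlap. Its means were 294 ± 21.6 and 841 ± 109 FPKM (SD, n = 3 each), 2.86-fold apart, with a log2 fold change of -1.51 (SE 0.20, 95% interval -1.95 to -1.06, limma adjusted p = 0.00123). The estimated reads behind these values were 621 to 872 per shTRMT6 library and 1682 to 2480 per shControl library for H3-3B. For H3-3A they were 289 to 528 and 882 to 1271.

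The proportion of H3-3A to H3-3B overlapped between the groups. H3-3B held 65.5, 62.3 and 68.2% of the H3.3 footprint sum in shTRMT6 and 64.7, 65.6 and 67.9% in shControl. The difference of the mean log2 ratio of H3-3A over H3-3B was 0.04, with a two-sided exact permutation p of 0.9 (0.9 adjusted over the 3 pairs of paralogues compared, where 3 against 3 libraries allow no p under 0.1). That ratio is formed within each library and does not depend on scaling between libraries.

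The H3.3 sum was 843, 841 and 864 FPKM in shTRMT6, against 2702, 2421 and 2292 FPKM in shControl, 2.91-fold lower by the means of 849 ± 12.8 and 2472 ± 210 FPKM (SD, n = 3 each). The 13 replication-dependent H3 genes summed to 3138 ± 897 FPKM in shTRMT6 and 18137 ± 2508 FPKM in shControl (SD, n = 3 each), 5.78-fold lower. H3.3 therefore made up 22.2, 16.9 and 26.7% of the H3 footprint FPKM in shTRMT6 and 11.5, 12.1 and 12.6% in shControl. Its share was higher in every shTRMT6 library than in every shControl library, at 21.9 ± 4.89% and 12.03 ± 0.558% (SD, n = 3 each), while its own level was lower. Against the replication-dependent genes of all 4 core classes in place of H3 alone, the log2 ratio of H3.3 differed by 0.46 in place of 1.02. Shares of a class are of the FPKM summed over 16 H3 or 23 H2A genes, the variant genes and the replication-dependent ones. FPKM is per length, so these are not shares of reads. Shares and sums over chosen genes were given no p.

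CENP-A is the H3 variant that specifies the centromere, and in human cells it is loaded after mitosis rather than with DNA replication. CENPA (ENSG00000115163, plus strand of chromosome 2 from 26764289 to 26801067) is the most distant of the H3 proteins measured here, with 47.3% of aligned residues identical to H3-3B, and all its 28-base stretches were unique. It had 16.2, 19.1 and 15.9 FPKM in shTRMT6 and 22.25, 27.9 and 7.58 FPKM in shControl. The shTRMT6 libraries were close together, and the shControl libraries lay on both sides of them. The log2 fold change was 0.01 (SE 0.43, 95% interval -0.95 to 0.97, limma adjusted p = 0.994), an interval that holds changes of nearly 2-fold either way. Only an estimated 17.3 to 32.6 reads per shTRMT6 library and 12.4 to 30.5 per shControl library stood behind these values. As a share of the H3 footprint FPKM CENPA had 0.426, 0.383 and 0.491% in shTRMT6 and 0.0943, 0.139 and 0.0416% in shControl, with no overlap.

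H2A.Z is placed at promoters, enhancers and the nucleosomes flanking transcription start sites, and is encoded by H2AZ1 and H2AZ2, whose proteins differed at 3 of 128 residues. Their coding sequences were 80.5% identical and shared no stretch of 28 bases. H2AZ1 (ENSG00000164032, minus strand of chromosome 4 from 99948086 to 99950388, 5 exons) had 905, 1019.7 and 879.8 FPKM in shTRMT6 and 2795, 2256 and 2382 FPKM in shControl. The groups were apart, with means of 935 ± 74.7 and 2478 ± 282 FPKM (SD, n = 3 each), 2.65-fold lower. The log2 fold change was -1.40 (SE 0.20, limma adjusted p = 0.00145). H2AZ1 was the most footprinted variant gene per length in both groups, at percentile 98.0 of tested genes in shTRMT6 and 98.98 in shControl.

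H2AZ2 (ENSG00000105968, minus strand of chromosome 7 from 44826791 to 44848083) had 534, 696 and 421 FPKM in shTRMT6 and 1002, 795 and 634 FPKM in shControl. The highest shTRMT6 library exceeded the lowest shControl library, and the log2 fold change of -0.56 (SE 0.26, 95% interval -1.14 to 0.01) did not pass (limma adjusted p = 0.113). Under median scaling, which brings all libraries to 1 median FPKM, it was -1.06 and was called lower (limma adjusted p = 0.0145), and without shControl library 3 it was -0.73 and was also called lower (limma adjusted p = 0.0347). Its sequence is not unique throughout: 54.9% of 28-base stretches of H2AZ2 and 41.7% of those of H2AZ1 occur nowhere else, and the rest occur in pseudogenes outside the deposited table.

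The balance between the H2A.Z paralogues did not overlap between the groups. H2AZ1 footprints were 1.69, 1.46 and 2.09 times those of H2AZ2 in shTRMT6 and 2.79, 2.84 and 3.75 times in shControl. The ratio was lower in every shTRMT6 library than in every shControl library, and the mean log2 ratios of 0.79 ± 0.26 and 1.63 ± 0.24 (SD, n = 3 each) differed by -0.84. The two-sided exact permutation p was 0.1, the smallest that 3 against 3 libraries allow, and 0.15 adjusted over the 3 pairs. H2A.Z as a whole summed to 1485 ± 211 FPKM in shTRMT6 and 3288 ± 441 FPKM in shControl (SD, n = 3 each), 2.21-fold lower. The 17 replication-dependent H2A genes were 3.72-fold lower by their sum. H2A.Z took a higher share of the H2A footprint FPKM, with 17.0, 15.6 and 18.2% in shTRMT6 and 10.5, 10.2 and 12.2% in shControl.

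H2A.X carries a C-terminal serine that kinases phosphorylate around DNA breaks, the mark known as gamma-H2AX. H2AX (ENSG00000188486, minus strand of chromosome 11 from 119093854 to 119095467) is built like a replication-dependent gene, with 1 exon and no intron, and its mRNA is known to end either at a histone stem-loop or at a poly(A) site further on. Of the 9 variant genes only H2AX held a stem-loop of the histone type after its coding end. Such a stem-loop was found in 36 of 19556 protein-coding genes of the table (0.184%), and in 31 of 61 replication-dependent core histone genes (50.8%). Of the 31 replication-dependent genes with at least 80 bases annotated after the coding end, 30 held it. The stem-loops of H2AX (chr11:119094898-119094913, minus strand, GRCh38) and of the replication-dependent H2AC8 (chr6:26217417-26217432, plus strand, GRCh38) are printed to show this shared feature; capitals mark the 6-base arms of the stem and lower case its loop.
H2AX: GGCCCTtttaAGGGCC
H2AC8: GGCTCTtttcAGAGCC

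Both stem-loops began 52 bases after the coding end. In H2AC8 the annotated transcript ended 51 bases later, and in H2AX it ran on for 1044 bases. H2AX had 87.5, 153 and 93.9 FPKM in shTRMT6, against 269, 247 and 246 FPKM in shControl. All 3 shTRMT6 libraries were lower, library 2 less so than the others, and averages were 111 ± 35.9 and 254 ± 13.0 FPKM (SD, n = 3 each), 2.28-fold lower. The log2 fold change was -1.23 (SE 0.25, limma adjusted p = 0.00612). Of its 28-base stretches 80.8% were unique, and 63 of 402 also occur in replication-dependent H2A or H3 genes. The 17 replication-dependent H2A genes summed to 7120 FPKM in shTRMT6 and 26474 FPKM in shControl. The sources used here do not say how reads of shared stretches were divided. The part of such reads in the H2AX values was not tested. As a share of the H2A footprint FPKM H2AX had 1.04, 1.39 and 1.31% in shTRMT6 and 0.746, 0.829 and 0.995% in shControl.

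MacroH2A proteins carry a large globular macrodomain behind their H2A-like part and are enriched on the inactive X chromosome and other silent chromatin. MACROH2A1 (ENSG00000113648, minus strand of chromosome 5 from 135333900 to 135399914) had 105, 101.4 and 93.65 FPKM in shTRMT6 and 89.8, 96.1 and 211 FPKM in shControl. Library 3 of shControl was about 2 times as high as the other 5, and the log2 fold change of -0.29 (SE 0.32, 95% interval -1.004 to 0.43) did not pass (limma adjusted p = 0.510). Without that library it was 0.10. Splice forms of MACROH2A1, which differ in the macrodomain, are not separated by values per gene.

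MACROH2A2 (ENSG00000099284, plus strand of chromosome 10 from 70052796 to 70112280) was the only variant gene with a positive log2 fold change whose interval left out 0. It had 47.0, 42.7 and 51.35 FPKM in shTRMT6 and 11.75, 26.1 and 44.7 FPKM in shControl. The shControl libraries spread widely and library 3 reached the shTRMT6 range. The log2 fold change was 0.93 (SE 0.41, 95% interval 0.01 to 1.86), with an unadjusted p of 0.0483 and a limma adjusted p of 0.105, so it was not called. Without shControl library 3 it was 1.37 and was called higher (limma adjusted p = 0.0144), where 28.3% of all genes were higher and 12.3% lower. MACROH2A2 made up 31.0, 29.6 and 35.4% of macroH2A footprints in shTRMT6 and 11.6, 21.3 and 17.5% in shControl. The mean log2 ratio of MACROH2A1 over MACROH2A2 was 1.09 ± 0.20 and 2.35 ± 0.54 (SD, n = 3 each), a difference of -1.26 with a two-sided exact permutation p of 0.1 (0.15 adjusted over the 3 pairs). The pair took 1.80, 1.31 and 2.02% of the H2A footprint FPKM in shTRMT6 and 0.282, 0.410 and 1.03% in shControl. Both macroH2A coding sequences have 1116 bases, against 390 in H2AC8, so the pair's share of reads would be larger.

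H2AJ (ENSG00000246705, plus strand of chromosome 12 from 14774383 to 14778002), an H2A variant known to accumulate in senescent cells, was listed at 0 in all 3 shTRMT6 libraries and at 1.03, 0 and 0 FPKM in shControl. At this depth H2AJ was close to or below the value of a few reads, so no change could be measured. Of 15 further core histone variant genes, most of them known from testis, 13 were in the table used here and 5 were above 0 in any library, with at most 4.19 FPKM in shTRMT6 and 2.41 FPKM in shControl.

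**Figure D2:**
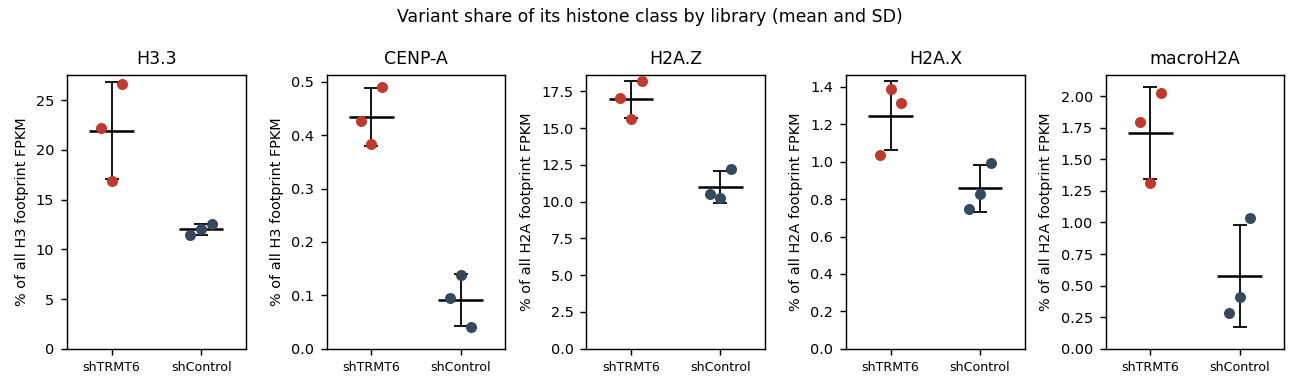
Share of each variant in the footprint FPKM of its class (percent of all H3 for H3.3 and CENP-A, of all H2A for H2A.Z, H2A.X and macroH2A; axes from 0) in 3 shTRMT6 and 3 shControl libraries, with means and SD. All 5 shares were higher in every shTRMT6 library than in every shControl library, H3.3 at 16.9 to 26.7% against 11.5 to 12.6% of H3. The replication-dependent sums within these classes were 5.78-fold (H3) and 3.72-fold (H2A) lower in shTRMT6. The FPKM of CENPA and of the macroH2A sum overlapped between the groups, and such shares were not tested for other genes.

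The variant shares were higher while the replication-dependent copies of the same classes were lower by more. Of 11 replication-dependent H3 genes tested 10 were lower (median log2 fold change -2.53), as were 13 of 15 H2A genes (median -1.88). Over all tested genes 9.04% were called lower. Not all replication-dependent copies are separate measurements, since H3C4, H3C14, H3C15, H2AC18 and H2AC19 had 0% unique 28-base stretches. How reads of such stretches were divided is not given, and the class sums, shares and ratios may depend on it. The log2 ratio of variant to replication-dependent sum was higher in shTRMT6 by 1.02 for H3.3, 0.75 for H2A.Z, 0.67 for H2AX, 1.90 for macroH2A and 2.58 for CENPA. Footprints per length ranked H2AZ1 first, then H3-3B and H2AZ2 with overlapping ranges, H3-3A, H2AX and MACROH2A1 with overlapping ranges, MACROH2A2, CENPA and H2AJ in shTRMT6. In shControl the order was H2AZ1, H3-3B, H3-3A and H2AZ2 with overlapping ranges, H2AX, MACROH2A1, MACROH2A2 and CENPA with overlapping ranges, and H2AJ.

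**Figure D3:**
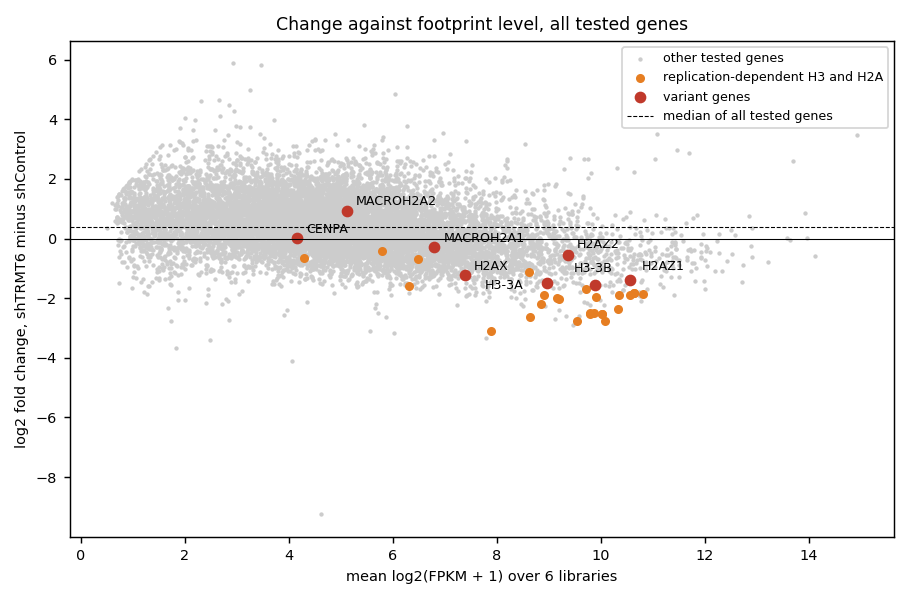
Log2 fold change of FPKM + 1 (shTRMT6 minus shControl) against mean log2(FPKM + 1) over the 6 libraries for all tested genes, with the 8 tested variant genes and the replication-dependent H3 and H2A genes coloured. The highest variant genes lie below 0 and mostly above the replication-dependent genes of like level; the dashed line is the median of all tested genes at 0.39.

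The fold changes of all genes sloped with footprint level, and the lowered variant genes are among the highly footprinted ones. With the trends on level and coding length removed in each library, H3-3A had a log2 fold change of -1.10, H3-3B of -1.07, H2AX of -1.02 and H2AZ1 of -0.89, and all 4 were still called lower (13.7% of genes lower in that fit). With median scaling the same 4 and H2AZ2 were called lower, H3-3B at -2.05 and H3-3A at -2.002 (19.7% of genes lower, with a median over all genes of -0.07). CENPA was below 0 at -0.46 with median scaling, -0.60 with quantile normalization and -0.20 with the trends removed, and passed in none of these. Over the main fit and 16 alternatives the limma adjusted p was at most 0.00858 for H3-3B, 0.0105 for H3-3A, 0.0130 for H2AZ1 and 0.0337 for H2AX.

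**Figure D4:**
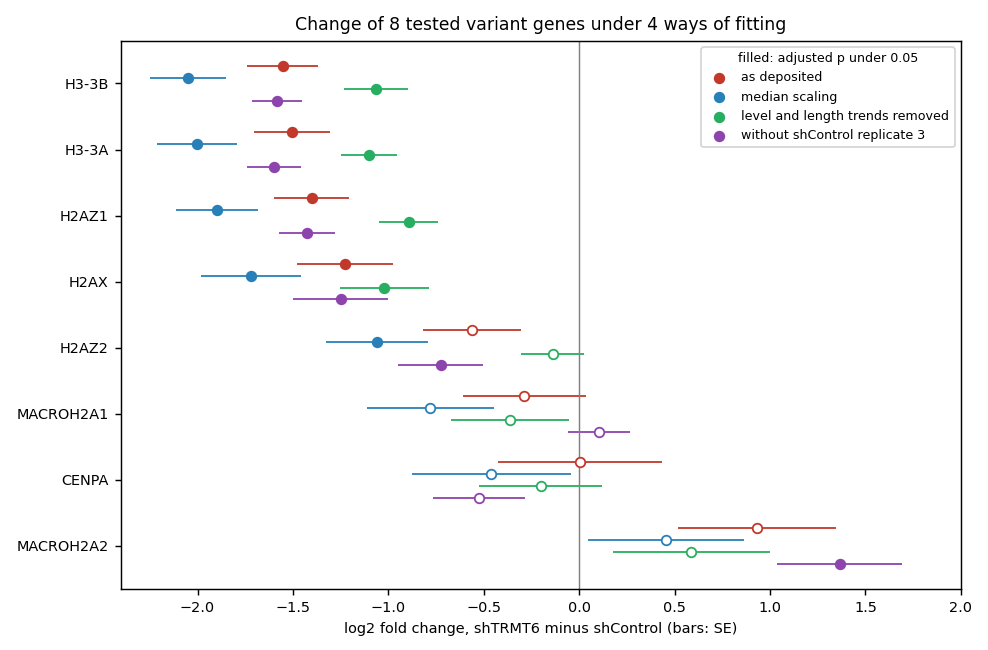
Log2 fold change (shTRMT6 minus shControl) with SE for each tested variant gene as deposited, with median scaling, with level and length trends removed, and without shControl library 3; filled points have a limma adjusted p under 0.05. H3-3B, H3-3A, H2AZ1 and H2AX are filled under all 4, H2AZ2 under median scaling and without shControl library 3, and MACROH2A2 only without that library.

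The promoters of all 9 variant genes were read because several of them were lowered together. Those of 3 lowered genes with a single RefSeq window each, and of MACROH2A2 for contrast, are printed; the lowered H3-3A has 4 windows and is given by its counts. The 250 bases before the start are printed on the gene's own strand from RefSeq on GRCh38.p14, at chr17:75779780-75780029 (minus) for H3-3B, chr4:99950276-99950525 (minus) for H2AZ1, chr11:119095466-119095715 (minus) for H2AX and chr10:70052596-70052845 (plus) for MACROH2A2. Capitals mark CCAAT, the motif bound by the factor NF-Y, whichever strand it is on (its reverse complement reads ATTGG). They also mark the TATA box motif TATAAA where it reads on the sense strand.
H3-3B: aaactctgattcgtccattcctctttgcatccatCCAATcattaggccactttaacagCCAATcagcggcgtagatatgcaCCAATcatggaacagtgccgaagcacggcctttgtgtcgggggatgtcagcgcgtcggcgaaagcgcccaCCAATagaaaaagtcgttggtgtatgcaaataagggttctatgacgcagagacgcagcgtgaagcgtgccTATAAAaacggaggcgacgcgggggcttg
H2AZ1: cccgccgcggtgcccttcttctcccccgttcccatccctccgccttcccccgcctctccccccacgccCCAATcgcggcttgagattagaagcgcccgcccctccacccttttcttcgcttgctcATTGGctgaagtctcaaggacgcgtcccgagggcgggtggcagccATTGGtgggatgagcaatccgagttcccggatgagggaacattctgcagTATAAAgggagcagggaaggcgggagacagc
H2AX: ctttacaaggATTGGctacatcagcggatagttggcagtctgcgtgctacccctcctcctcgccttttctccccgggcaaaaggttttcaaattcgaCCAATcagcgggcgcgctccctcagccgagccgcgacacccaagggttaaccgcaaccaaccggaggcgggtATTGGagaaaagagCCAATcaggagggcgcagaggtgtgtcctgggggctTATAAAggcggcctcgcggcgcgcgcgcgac
MACROH2A2: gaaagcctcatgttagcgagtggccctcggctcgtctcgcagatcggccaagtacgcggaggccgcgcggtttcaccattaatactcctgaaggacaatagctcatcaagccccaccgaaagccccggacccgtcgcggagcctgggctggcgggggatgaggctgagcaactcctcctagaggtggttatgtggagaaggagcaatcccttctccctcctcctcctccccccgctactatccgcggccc

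H3-3B and H2AX held 4 CCAAT boxes each and H2AZ1 held 3, and all 3 held TATAAA, 29 bases before the start in H3-3B and 31 in H2AZ1 and H2AX. MACROH2A2 held neither. The number of CCAAT boxes did not separate lowered genes from the others. The lowered H3-3A held 1 in each of 3 windows and 0 in the other, while H2AZ2, which was not called, held 4. H2AJ held 3, CENPA held 2, and MACROH2A1 held 2 and 0 in its windows. All 9 variant genes matched a RefSeq window, 13 windows in all, and CCAAT occurred in some window of 8 of them. TATAAA occurred in H3-3B, H2AZ1 and H2AX only, so of the 4 lowered genes H3-3A held none in its 4 windows. TTTGAA, a common form of the CHR element of cell cycle genes, was searched on both strands and occurred in H2AX and CENPA. Over 35116 windows of the same length CCAAT occurred in 32.0%, TATAAA in 6.80% and TTTGAA in 13.3%. These shares are per window, while the 8 of 9 variant genes with CCAAT are counted per gene, over up to 4 windows each. Each motif was counted on its own. In the 29 windows of 27 replication-dependent H3 and H2A genes CCAAT occurred in 29, TATAAA in 18 and TTTGAA in 9. These are matches of letters, and no binding was measured.

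The genes that place, remove or read the variants were more often called higher than lower as deposited. Of 39 such genes with a row of their own, all tested, 17 were higher, 4 were lower and 18 did not pass. Of all tested genes 26.5% were higher and 9.04% lower. The number called higher depended on scaling, with 6 higher and 9 lower under median scaling, and 2 higher and 6 lower with the level and length trends removed. Only UBN2 and KAT5 were called higher, and DEK, YEATS4, MIS18A and OIP5 lower, as deposited and under all 5 other scalings. Of all tested genes, 8.25% were lower and 30.1% higher as a share of the library sum, 6.1% and 36.3% as a share of the nuclear sum, and 14.7% and 13.9% with quantile normalization, beside 13.1% higher with median scaling and 13.5% higher with the trends removed.

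For H3.3 these are the HIRA complex, which deposits it at active genes, and DAXX with ATRX, which deposits it at telomeres and repeats. Of 8 genes 5 were higher, with a list median of 0.95. UBN2, a HIRA partner, had 39.5, 26.7 and 33.2 FPKM in shTRMT6 and 6.98, 9.33 and 9.37 FPKM in shControl (log2 fold change 1.83, SE 0.28, limma adjusted p = 0.00201). The other 4 were ATRX at 1.56, UBN1 at 1.53, HIRA itself at 1.08 and DAXX at 0.83 on the log2 scale. In all 4 every shTRMT6 library was above every shControl library, as it was for 37.0% of all tested genes. With the level and length trends removed ATRX was at 0.61, UBN1 at 0.61, HIRA at 0.34 and DAXX at 0.22, and none of the 4 passed. HIRA and DAXX also did not pass with median scaling (limma adjusted p = 0.159 and 0.303). DEK, a chromatin protein known to bind H3.3, was lower, with 117, 109.6 and 104 FPKM in shTRMT6 and 216, 192 and 181 FPKM in shControl (log2 fold change -0.83, SE 0.20, limma adjusted p = 0.0119). ASF1A, which hands H3 to HIRA, and CABIN1 did not pass, at log2 fold changes of -0.27 and 0.36.

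H2A.Z is placed by the SRCAP and EP400 (TIP60) remodelling complexes, and INO80 and ANP32E are known to remove it. Of 13 genes 6 were higher and 1 was lower, with a list median of 0.22. KAT5, the acetyltransferase of the TIP60 complex, had 315, 398 and 321 FPKM in shTRMT6 and 46.2, 188 and 67.2 FPKM in shControl (log2 fold change 2.02, SE 0.43, limma adjusted p = 0.00743). INO80 at 1.53, BRD8 at 1.39, DMAP1 at 1.07, EP400 at 1.07 and VPS72, which binds H2A.Z directly, at 0.75 were the others called higher. With the level and length trends removed EP400 was at -0.12, and these 5 did not pass. YEATS4, a reader subunit shared by both complexes, was lower, with 22.6, 17.9 and 22.75 FPKM in shTRMT6 and 41.2, 43.8 and 76.8 FPKM in shControl (log2 fold change -1.26, SE 0.30, limma adjusted p = 0.0104). ANP32E and ZNHIT1 did not pass, at -0.28 and -0.42. With median scaling both were called lower, at -0.77 and -0.92 (limma adjusted p = 0.0349 and 0.0181), where 19.7% of all tested genes were lower.

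For CENP-A the chaperone and its licensing factors moved in opposite directions. HJURP, the CENP-A chaperone, had 76.0, 86.1 and 129 FPKM in shTRMT6 and 32.85, 52.7 and 39.4 FPKM in shControl (log2 fold change 1.19, SE 0.28, limma adjusted p = 0.0111). It was 0.70 with median scaling, which did not pass (limma adjusted p = 0.0695). MIS18A and OIP5, subunits of the MIS18 complex that licenses centromeres for loading, were both lower. MIS18A had 21.95, 23.6 and 17.5 FPKM in shTRMT6 and 60.6, 57.1 and 39.99 FPKM in shControl (log2 fold change -1.27, SE 0.27, limma adjusted p = 0.00672). OIP5 had 13.2, 7.94 and 13.9 FPKM in shTRMT6 and 37.15, 34.5 and 22.7 FPKM in shControl (log2 fold change -1.36, SE 0.32, limma adjusted p = 0.0103). CENPN and RACGAP1 did not pass, at 0.19 and -0.55. The 8 genes of this list that could be measured had a median of -0.18. KNL2 was also listed but had no row of its own in the deposited table.

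For H2A.X these are the kinases that phosphorylate it and the factors that read the mark or exchange the histone. Of 10 genes 5 were higher and none lower, with a list median of 0.71. ATM, the main kinase for H2A.X at breaks, had 40.2, 29.2 and 51.6 FPKM in shTRMT6 and 15.1, 18.2 and 10.1 FPKM in shControl (log2 fold change 1.42, SE 0.32, limma adjusted p = 0.00866). The ubiquitin ligases RNF168 at 1.10 and RNF8 at 0.86, the reader TP53BP1 at 1.00 and the kinase BAZ1B at 1.00 were also higher. Of the 10 only ATM passed with median scaling, and none passed with the level and length trends removed. SSRP1 of the FACT complex and PRKDC, the catalytic subunit of the kinase DNA-PK, did not pass, at 0.02 and 0.55.

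**Figure D5:**
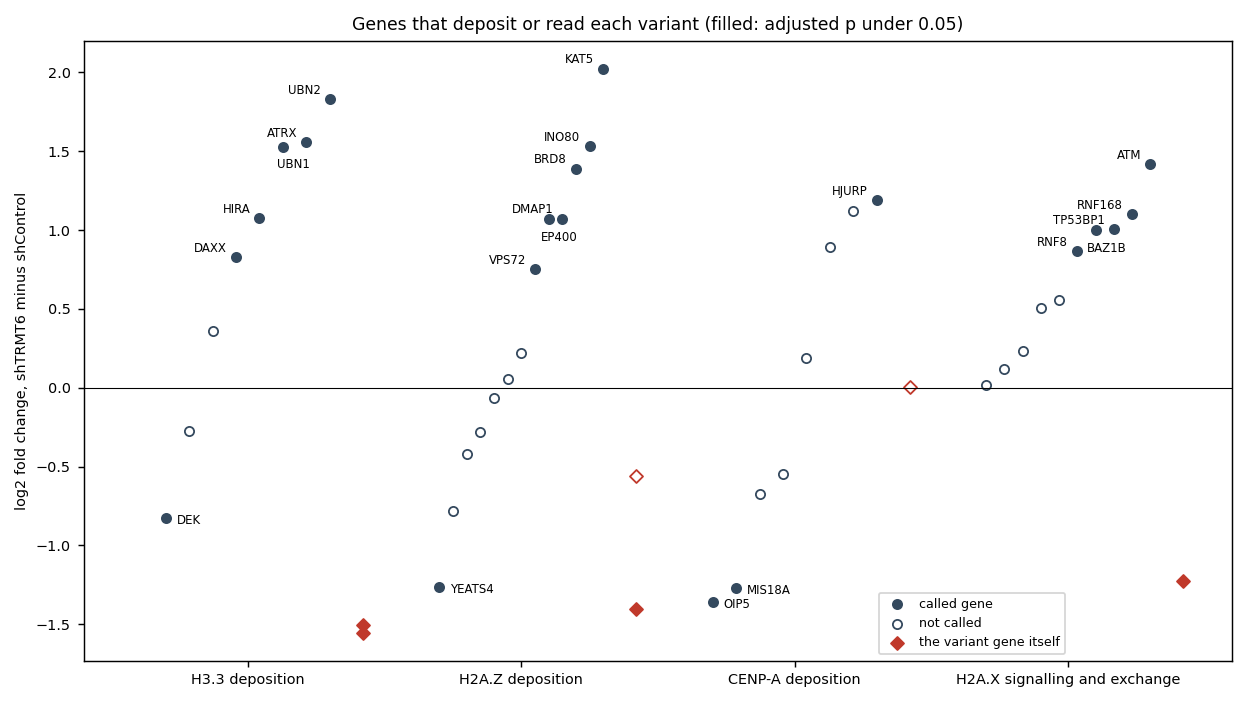
Log2 fold change (shTRMT6 minus shControl) of 39 genes that place, remove or read H3.3, H2A.Z, CENP-A and H2A.X, one column per list in order of change, with the variant genes as diamonds; filled symbols have a limma adjusted p under 0.05 and are named for the lists. UBN2 at 1.83 and KAT5 at 2.02 are highest, and H3-3A and H3-3B lie at -1.51 and -1.55 below the whole H3.3 list.

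The variant genes followed their common profile to different degrees. The mean of the centred log2(FPKM + 1) values of the 8 tested genes over the 6 libraries correlated with H2AZ1 and H3-3A at a Pearson r of 0.98, with H2AX at 0.97, with H3-3B at 0.96 and with H2AZ2 at 0.78. It correlated with MACROH2A1 at 0.33, with CENPA at 0.04 and with MACROH2A2 at -0.65. These values describe 2 groups of 3 libraries and include each gene in the mean. Among genes outside the 8, the highest r with that mean were those of UQCRFS1, PYCR3, PSME2, H2AC4 and SNRPC, at 0.995 to 0.996 over 6 libraries. H2AC4 is a replication-dependent H2A gene, at 163 FPKM in shTRMT6 and 985 FPKM in shControl.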

How the data were processed

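Ribosome footprints of 3 shTRMT6 and 3 shControl libraries of RKO cells were analysed. RNase I digestion, size exclusion columns and a small RNA library kit were used, per the labels' protocols. The authors deposited FPKM per gene, per the file headers. Tools named in the submitters' processing notes are fastp, STAR and RSEM, with no version. Genome build, annotation and the handling of multi-mapping reads and strand were not given in the sources used here. NC columns were read as shControl and SH columns as shTRMT6, a reading no label states, and 0 columns were unassigned.

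Symbols were found for 19705 of 20289 identifiers, and 2 histone symbols were added through GENCODE 29 and RefSeq synonyms. log2(FPKM + 1) was fitted with limma 3.58.1 in R 4.3.3 (group only, eBayes with intensity trend, two-sided, Benjamini-Hochberg) over the 11566 genes that reached 1 FPKM in 3 or more libraries; adjusted p under 0.05 was called, and fold changes understate low genes. Paralogue ratios were compared by exact permutation. Reads were estimated from the steps between low FPKM values with GENCODE 29 coding lengths, and 72.6 to 80.1% of low values came within 0.1 of a whole read. Uniqueness was counted over 28-base stretches of coding sequence against all GENCODE 29 transcripts, and stem-loops as matches to the histone stem-loop consensus after the coding end. The fit was tested on simulated data. No 2 libraries were duplicates. Python 3.11.15, pandas 2.3.3, numpy 2.4.6, scipy 1.17.1 and matplotlib 3.10.9 were used.

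Members, lists and alternatives were chosen with earlier results of these data known. Named were all 9 members, TRMT6, every called gene of the 4 lists, up to 2 uncalled ones of highest level per list, and the 5 genes most like the members; some genes are not reported here. Alternatives were other scalings, filters, a pseudocount of 0.1, a replicate block, no intensity trend, other sums for the class ratios and leaving out each library. The same-numbered libraries of the groups deviated together at r of 0.01 to 0.10, so numbers were not taken as pairs.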

Additional observations from a re-analysis of the deposited data

How the results depend on the processing

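H3-3A, H3-3B, H2AZ1 and H2AX were lower and called in all 16 alternatives. H2AZ2 was called with median scaling (-1.06) and without shControl library 3 (-0.73). CENPA was -0.46 with median scaling, -0.60 with quantile normalization, -0.20 with trends removed, and, leaving out libraries, -0.53 to 0.35. Over all genes the calls were 2275 lower and 1520 higher with median scaling, 1700 and 1602 with quantile normalization, and 1563 and 1537 with trends removed, against 1046 and 3069. Of the 39 associated genes 9 were lower and 6 higher with median scaling, 7 higher with quantile normalization and 2 higher with trends removed. The log2 ratio difference of H3.3 was 0.46 against all core classes.

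Leaving out each library gave -0.75 to -0.38 for H2AZ2, -0.51 to 0.10 for MACROH2A1 and 0.44 to 1.37 for MACROH2A2. It gave 587 to 1428 genes lower (587 without shTRMT6 library 1, 599 without shTRMT6 library 3, 684 without shControl library 1) and 1828 to 3270 higher (1957 without shTRMT6 library 1, 1828 without shTRMT6 library 3). It gave 0 to 1 members higher, 3 to 6 associated genes lower and 6 to 19 higher (9, 10 and 6 without shTRMT6 libraries 1, 2 and 3, and 10 without shControl library 1), and -0.052 to 0.14 for the ratio of H3-3A to H3-3B. The causes of these shifts were not tested. With the replicate block 1065 genes were lower and 3146 higher, and no call of a member changed; the numbers do not pair the libraries. H2AJ was tested only without a filter on low values (-0.34, limma adjusted p = 0.414). Depth limits CENPA and H2AJ most, at about 12.4 to 32.6 estimated reads or fewer per library.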
